A study of Mus musculus with 25 samples.

Results

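The cytosolic ribosomal protein genes encode the proteins of the ribosome that translates nuclear messages. They were taken as the rows of the expression table whose symbol is Rpl or Rps followed by a protein number, P0, P1, P2 or A, with at most 1 further letter a, l or x. The rule used only names. It matched 83 rows and, after each repeated symbol (Rpl29 and Rps27) was reduced to its row of largest sum, gave 80 genes of 30903 symbols, 32 of the small and 48 of the large subunit. Levels are in RPKM, the reads of a gene divided by its length and by the reads of the cell. A gene is called present from 10 RPKM upwards.

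RNA was measured in 25 single cells of the arcuate nucleus with the adjoining median eminence, regions of the mouse hypothalamus. The donors were 2 pooled adult RIP-Cre males, average age 63 days, on the (C57BL/6 x DBA)F2 background, in which a rat insulin promoter drives Cre recombinase. The mice carried AAV-loxSTOPlox-GFP, a virus that gives green fluorescent protein after Cre recombination, and GFP-positive cells were picked by hand after papain digestion, so the cells are those that both survived digestion and were labelled. The 25 cells form 1 group and 1 pooled sample, there were no control cells, and therefore cells are not replicates and no test or p-value is given. The numbers given to cells are those of the labels.

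A ribosome has a small subunit, which reads the messenger RNA, and a large subunit, which joins amino acids and holds the exit tunnel of the new chain. With few exceptions each protein is present in 1 copy per ribosome, and unassembled ribosomal proteins are degraded. The messages of these genes in vertebrates begin with a run of pyrimidines, the 5′ terminal oligopyrimidine (TOP) motif, through which mTORC1 signalling controls their translation. In neurons they are among the abundant messages of the cell body.

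Of 8 neuron markers, 5 to 8 reached 10 RPKM in each cell, and of 28 markers of other cell classes 0 to 2 did, with 14 at 0 in all cells. Read depth per cell, inferred from the spacing of the lowest values, was 893306 reads in cell 9 to 2954042 in cell 11, with a median of 1795304. The table does not state these read numbers. Since the libraries carry no molecular identifiers, reads are not independent molecules. Cell 43 had the fewest genes at 10 RPKM (3843, against up to 6183), and 6 cells had Malat1, a nuclear RNA, below 20 RPKM.

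The ribosomal protein genes were near-uniformly present. Of the 80 genes, 68 reached 10 RPKM in all 25 cells (27 small subunit, 41 large subunit), 9 did so in some cells and 3 in none. Over all 30903 symbols, 804 reached 10 RPKM in all 25 cells, which is 2.6%. At 10 RPKM in most cells (13 or more) were 77 of the 80 genes and 13.5% of all symbols. Values above 0 in all 25 cells were listed for 71 of the 80 genes and for 4.15% of all symbols. The median of the genes' median levels was 238 RPKM, and among the 68 it was 247 RPKM, beside 178 RPKM over the 804. By median level 14 members stood at 300 RPKM or more, 32 at 200 to 300, 22 at 100 to 200, 5 at 50 to 100 and 4 between 0 and 50. Of the 14 highest, 11 were of the large and 3 of the small subunit. The 200 genes of highest median in the table held 33 members, and the 50 highest held 4.

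**Figure D1:**
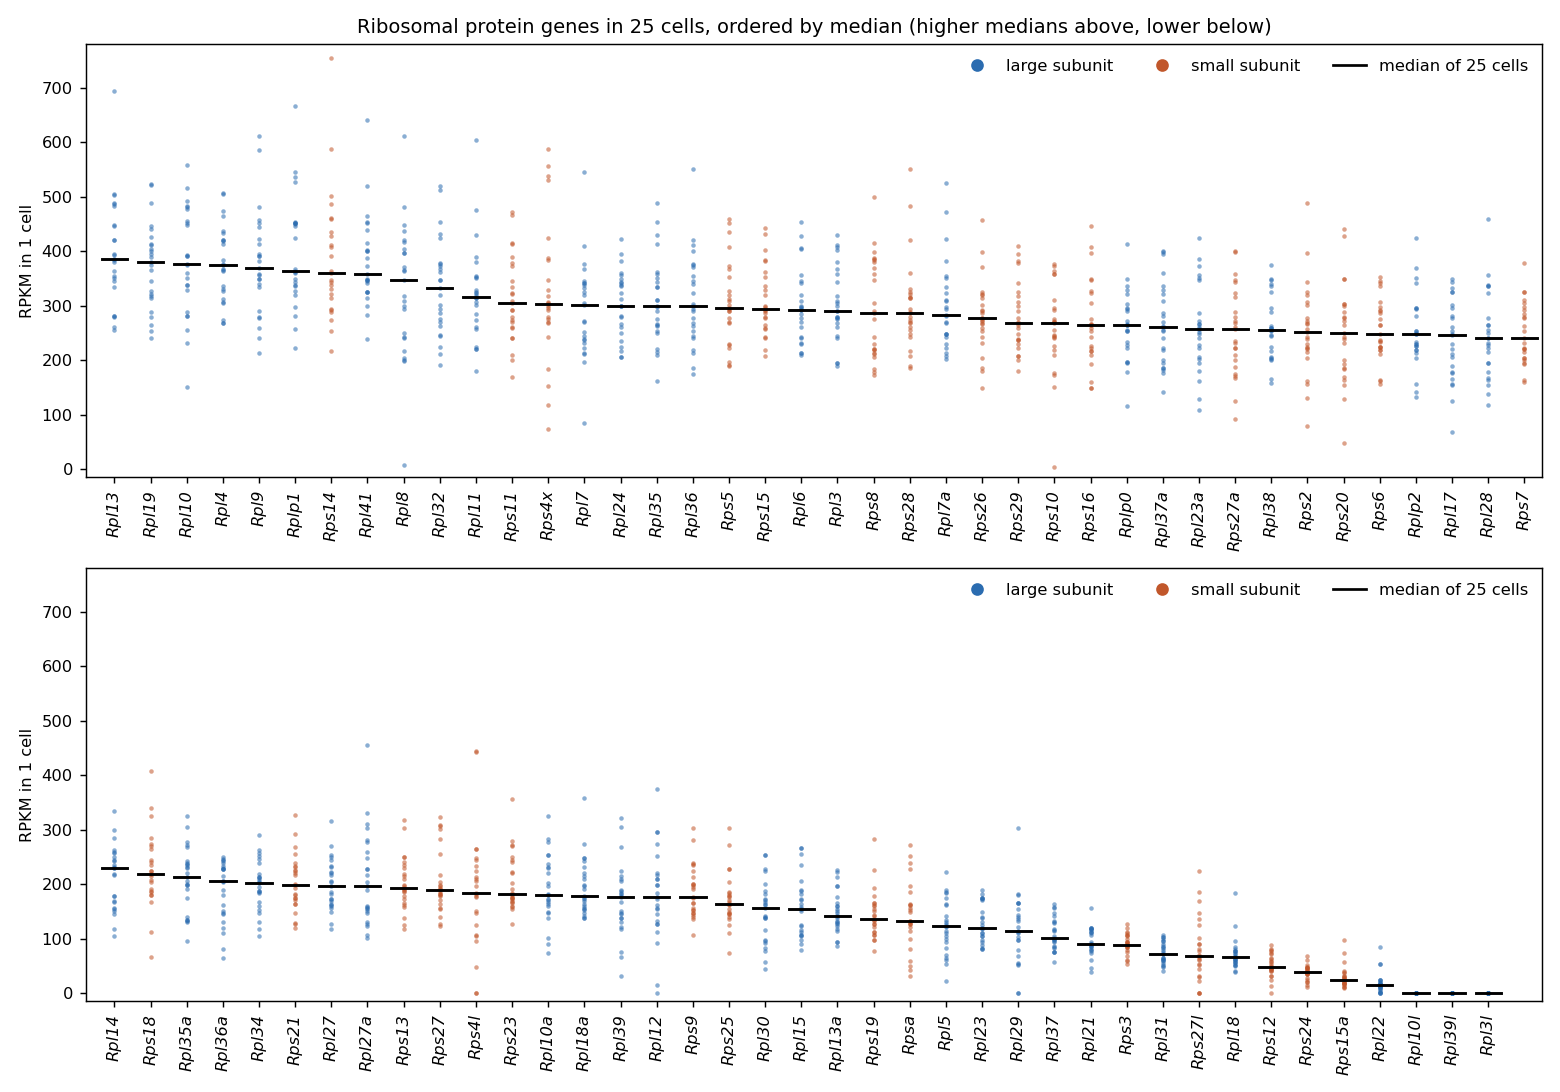
RPKM (vertical axis) of the ribosomal protein genes (horizontal axis, ordered by median, with 1 gene not drawn) in each of 25 cells. Each point is 1 cell, blue for large and orange for small subunit genes, and black bars are medians; most medians lie between 100 and 400 RPKM, and Rpl10l, Rpl39l and Rpl3l are at 0 in every cell.

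Rpl13, a large subunit protein (ENSMUSG00000000740.12, chr8:123102350-123105244, plus strand, GRCm38), had the highest median, 386 RPKM, with a lowest value of 256 RPKM in cell 15 and a highest of 694 RPKM in cell 9. Cell 9 stood apart, since the next cell was at 505 RPKM. Rpl19, at the rim of the exit tunnel, ranged from 240 to 522 RPKM with a median of 380 RPKM. Rpl10, an X-linked gene whose protein joins the large subunit late in its assembly, ranged from 150 RPKM in cell 7 to 558 RPKM in cell 31 with a median of 375 RPKM. Rpl4, which lines the exit tunnel, ranged from 268 to 507 RPKM with a median of 375 RPKM. The ranges of these 4 genes overlapped almost fully, so their order is not separated by the spread over cells. Rpl9 (369 RPKM), Rplp1 (363 RPKM), Rps14 (360 RPKM), Rpl41 (357 RPKM), Rpl8 (347 RPKM) and Rpl32 (331 RPKM) completed the 10 highest medians, and their ranges overlapped those of the first 4.

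The stalk of the large subunit, which recruits elongation factors, is built from Rplp0 and pairs of Rplp1 and Rplp2. Rplp1 ranged from 222 RPKM in cell 11 to 667 RPKM in cell 9, with a median of 363 RPKM. Rplp0 ranged from 115 RPKM in cell 4 to 414 RPKM in cell 9, with a median of 264 RPKM. Rplp2 ranged from 133 RPKM in cell 12 to 423 RPKM in cell 43, with a median of 247 RPKM. Rplp1 had the highest median of the stalk genes, and the 3 ranges overlapped. Within cells, Rplp1 was above Rplp2 in every cell. It was above Rplp0 in every cell except cell 5 (281 against 290 RPKM).

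Rpl5 and Rpl11 bind 5S ribosomal RNA and, when free of ribosomes, the p53 regulator Mdm2. Rpl11 ranged from 179 RPKM in cell 3 to 604 RPKM in cell 43, with a median of 315 RPKM. Rpl5 ranged from 22.9 RPKM in cell 15 to 223 RPKM in cell 43, with a median of 124 RPKM. Rpl5 was thus among the 5 of the 68 genes with the widest relative spread, with a coefficient of variation (SD as a percent of the mean over cells) of 39.8%, beside 27.3% for Rpl11.

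The exit tunnel rim genes in the table were Rpl19 (median 380 RPKM), Rpl35 (300 RPKM), Rpl23a (257 RPKM) and Rpl31 (72.4 RPKM). The fifth rim gene, Rpl26, had no row under that name. The row Gm15772, annotated by RefSeq as a transcribed pseudogene with Rpl26 as a synonym, was at 157 RPKM in cell 11 to 435 RPKM in cell 43, with a median of 263 RPKM. Of the 50-base words of its transcript 74.3% also occur in Rpl26 transcripts, so reads of the 2 genes cannot all be told apart.

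Among small subunit proteins along the path of the messenger RNA, medians were 360 RPKM for Rps14, 286 RPKM for Rps28, 277 RPKM for Rps26, 252 RPKM for Rps2 and 88.8 RPKM for Rps3. Rps2, near the entry of the channel, ranged from 78.2 RPKM in cell 7 to 488 RPKM in cell 43. Rps3, a helicase element of the same entry site that also has roles in DNA repair, ranged only from 53.0 to 127 RPKM. All 25 values of Rps3 were below the lowest value of Rps14, 217 RPKM.

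Besides Rpl10, the X-linked members were Rps4x, Rpl36a and Rpl39. Rps4x ranged from 73.3 RPKM in cell 9 to 587 RPKM in cell 43, with a median of 303 RPKM. Rpl36a ranged from 64.7 to 249 RPKM with a median of 205 RPKM, and Rpl39, which sits inside the exit tunnel, from 31.6 RPKM in cell 9 to 322 RPKM in cell 34 with a median of 177 RPKM. Cell 9 was thus lowest for 2 of the 4 X-linked genes, and it was the shallowest library.

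The lowest medians above 0 belonged to Rpl22 (14.1 RPKM), Rps15a (24.5 RPKM), Rps24 (38.4 RPKM), Rps12 (47.5 RPKM), Rpl18 (65.8 RPKM), Rps27l (67.8 RPKM), Rpl31 (72.4 RPKM), Rps3 (88.8 RPKM), Rpl21 (90.5 RPKM) and Rpl37 (101 RPKM). RPKM divides by a gene length, and the length the authors used is not given. In GENCODE M21 the exons of Rps15a together cover 6270 bases while its principal transcript has 640, a ratio of 9.80. For Rps24 these were 6256 and 1613 bases, for Rpl18 4043 and 679, and for Rpl22 2911 and 474. Over the 77 genes above 0, the median level had a Spearman rho of -0.36 with the exon total and -0.02 with the length of the principal transcript, a description across genes, which are not replicates. The part of gene length in the low levels was not tested.

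Of the tissue-restricted copies, 3 were listed at 0 in every cell. Rpl3l, the copy of Rpl3 in heart and skeletal muscle, Rpl10l, the testis copy of Rpl10, and Rpl39l, a copy of Rpl39 known from testis, were at 0 in 25 of 25 cells. A listed 0 does not show that a cell lacks the message, since single cells were also at 0 for abundant members such as Rpl12. Their parent genes Rpl3 (median 291 RPKM, from 190 to 430 RPKM), Rpl10 and Rpl39 were at 10 RPKM or more in all 25.

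Rpl22 and Rpl22l1 are copies whose proteins can take the same place in the large subunit. Rpl22 itself was at 0 in cells 6, 9 and 24, had a median of 14.1 RPKM and reached 84.0 RPKM in cell 4, the highest value, followed by 53.8 RPKM in cell 26 and 53.0 RPKM in cell 8. Rpl22l1, which the naming rule leaves out, ranged from 31.0 RPKM in cell 15 through a median of 227 RPKM to 511 RPKM in cell 43. Rpl22l1 was above Rpl22 in 25 of 25 cells, 16.1-fold by the medians, though in cell 8 the values were 56.4 and 53.0 RPKM. Of the 50-base words of Rpl22l1, 65.6% occur in other genes (56.5% in Gm15421), against 24.5% of those of Rpl22, so the level of Rpl22l1 and the fold are uncertain. The contrast also rests on a gene length that is not given. The exons of Rpl22 cover 2911 bases and its principal transcript 474, and its median times that ratio is 86.7 RPKM. Rpl22l1 was not adjusted in this way, so that value cannot be set against its median of 227 RPKM. The 2 genes had a Spearman rho of 0.28 over the 25 cells. The emphasis on this pair was chosen after its values were seen.

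**Figure D2:**
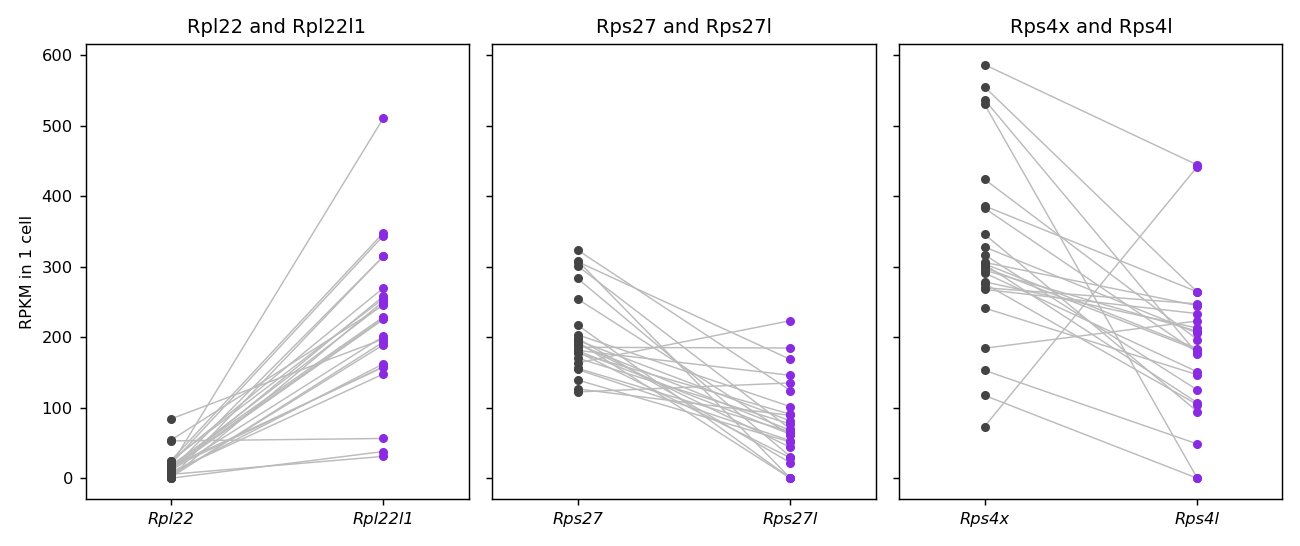
RPKM (vertical axis) of 3 ribosomal protein genes and their copies, with 1 point per cell and grey lines joining the values of the same cell. Rpl22l1 lies above Rpl22 in all 25 cells, whereas Rps27 and Rps4x lie above Rps27l and Rps4l in 23 cells each.

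Rps27l differs from the small subunit gene Rps27 by few residues and is a known p53 target. Rps27 ranged from 122 to 324 RPKM with a median of 190 RPKM. Rps27l was at 0 in cells 14, 34 and 43, had a median of 67.8 RPKM and reached 223 RPKM in cell 3. Rps27 was higher in 23 of 25 cells, and the exceptions were cells 3 (164 against 223 RPKM) and 26 (122 against 135 RPKM). Rps27l was the only one of the 77 genes above 0 with a negative Spearman rho with the sum of the other members (-0.32), and the only one with a positive rho with estimated depth (0.44). Nearly all of the 50-base words of Rps27 (98.6%) occur in other genes, so its level is uncertain.

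Rps4l, annotated as a transcribed pseudogene on chromosome 6, is an autosomal copy of Rps4x. It was at 0 in cells 32 and 34, had a median of 184 RPKM and was highest in cells 43 (444 RPKM) and 9 (442 RPKM). Rps4x was higher in 23 of 25 cells. In cell 9 the order was reversed, with Rps4x at 73.3 RPKM and Rps4l at 442 RPKM, and in cell 15 the values were 184 and 223 RPKM. No 50-base word of the Rps4l transcript occurs in Rps4x, so reads of at least that length would separate them, although read length is not given in the sources used here.

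Single values under 10 RPKM were rare among the abundant genes. Of 1700 values of the 68 genes with a median of 100 RPKM or more, 7 were under 10 RPKM, in 5 genes. Rpl8 was at 6.48 RPKM in cell 14, and its next lowest value was 198 RPKM. Rps10, which lies at the neck of the small subunit, was at 3.33 RPKM in cell 3, with 150 RPKM as its next lowest value. Rpl12, a stalk-base protein, was at 0 in cell 15 and 14.6 RPKM in cell 27, with a median of 177 RPKM. Rpl29 was at 0 in cells 10 and 14, and Rps4l in cells 32 and 34. Cell 14 held the fewest members at 10 RPKM, 73, and other cells 75 to 77.

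The summed level of the 80 genes was 11305 RPKM in cell 11, 16737 RPKM in the median cell and 25708 RPKM in cell 43, a 2.27-fold range. Its share of the column sum was 3.16% in cell 11 and 6.03% in cell 43, with a median of 4.40%. Cell 43 had the highest value for 30 of the 77 genes above 0 and cell 9 for 21. Cell 9 also had the lowest value for 10 of them, so its profile was uneven rather than uniformly high. Cell 11 had the lowest value for 17, cell 15 for 12 and cell 7 for 11, with ties at 0 counted in each cell.

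**Figure D3:**
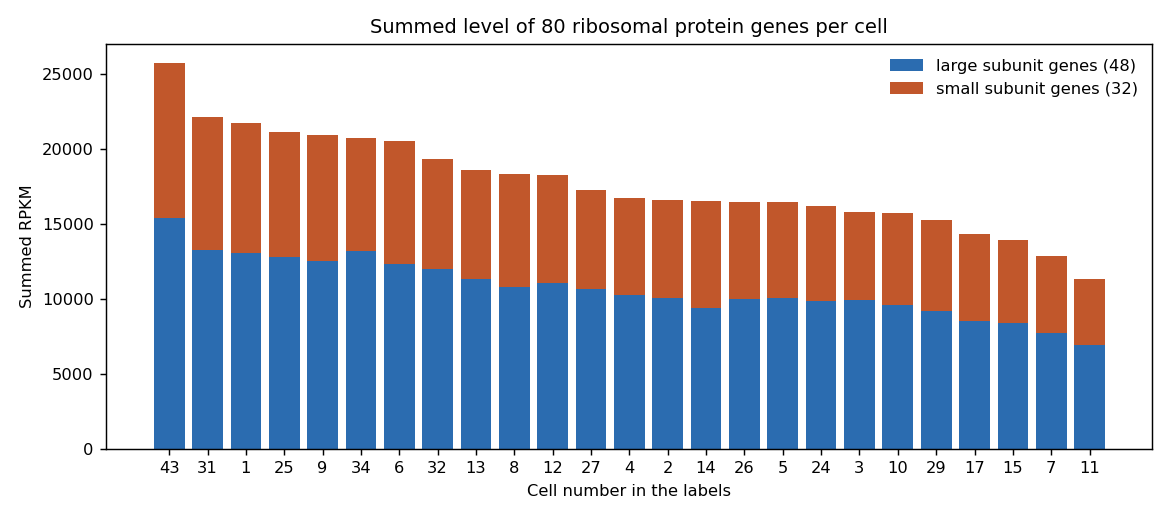
Summed RPKM (vertical axis) of the ribosomal protein genes in each cell (horizontal axis, ordered by the sum), split into 48 large subunit (blue) and 32 small subunit genes (orange). The sum falls from 25708 RPKM in cell 43 to 11305 RPKM in cell 11, with a similar split in every cell.

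The summed level moved with depth. Over the 25 cells, its Spearman rho was -0.80 with estimated depth, -0.56 with the number of genes at 10 RPKM and 0.59 with the column sum. The rho with depth was negative for 76 of the 77 genes above 0, with a median of -0.53. The 7 cells of highest sum, 43, 31, 1, 25, 9, 34 and 6, had 1299753, 1184327, 1627710, 1291978, 893306, 1122069 and 1848130 reads. Of these, cell 6 was above the median depth of 1795304 reads. Cell 11, of the lowest sum, had the most reads. Estimated reads per base of exon had a median of 0.444 over member medians, no member exceeded 0.955 in any cell and no gene exceeded 1.49. Median member reads per base rose with depth (rho 0.70). Whether duplicate reads were removed is not given in the sources used here, and the part of depth in the summed level was not tested. All these points share the library, its depth and its scaling.

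Relative to the 100 other genes of highest median, a scale chosen after the data were seen, the differences between cells narrowed. The summed level was 0.398 times that of the 100 genes in cell 7 and 0.545 times in cell 29, a 1.37-fold range, with cell 43 at 0.540. On this scale the rho with depth was -0.24. The 2 cells of highest ratio, 29 and 43, had 2670256 and 1299753 reads.

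**Figure D4:**
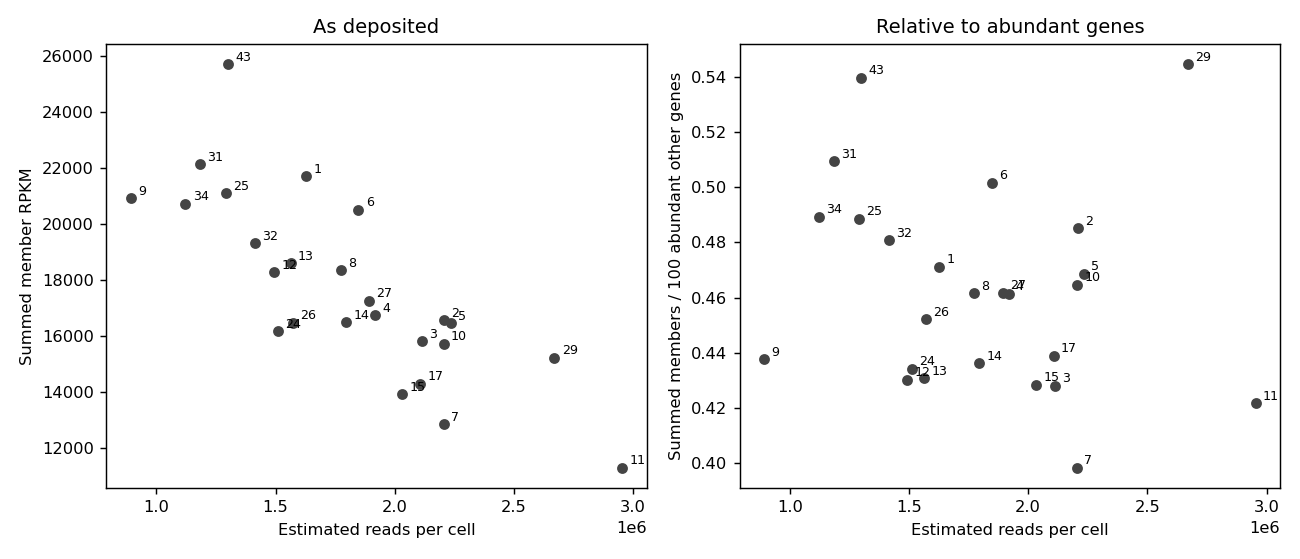
Left, summed RPKM of the ribosomal protein genes, and right, their sum divided by that of 100 abundant other genes, both against estimated reads per cell; each point is 1 cell with its number. The left panel falls with depth (Spearman rho -0.80) and the right panel shows less of a trend (-0.24).

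Both subunits shared this variation. The small subunit sum was 4406 to 10338 RPKM and the large subunit sum 6899 to 15369 RPKM, with a rho of 0.94 between them. Their ratio had a median of 0.653 and ranged from 0.573 in cell 34 to 0.752 in cell 14. The genes are unequal in number, and the median over cells of the ratio between the median small and the median large subunit gene was 0.989. Cell 14 was the cell with Rpl8 at 6.48 RPKM and the highest Rps20 value, 441 RPKM.

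Sst, the somatostatin gene, was at 710 to 1577 RPKM in 5 of the 25 cells (1, 6, 9, 25 and 31), a set picked with its values in view. Their summed ribosomal protein levels were 20507 to 22129 RPKM, with ranks 2, 3, 4, 5 and 7 of 25. The other 20 cells ranged from 11305 to 25708 RPKM, with cell 43 at the top. Cell 34, at 20712 RPKM, was also above cell 6, so the 2 sets overlapped without cell 43 too. The median was 16483 RPKM in the 20 beside 21097 RPKM in the 5. Depth in the 5 was 893306 to 1848130 reads with a median of 1291978. In the other 20 it was 1122069 to 2954042 with a median of 1905407, so the 5 were shallower by the median. The ratio to the 100 abundant genes was 0.438 to 0.510 in the 5, beside 0.398 to 0.545 in the others. The part of depth in this difference was not tested.

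Relative spread differed between members. Among the 68 genes in all cells, the coefficient of variation had a median of 27.0% (18.7% to 44.8%), beside 34.1% (12.7% to 76.5%) over the other 736 genes at 10 RPKM in all cells. The members stood at higher levels. Among genes with a median of 100 RPKM or more it was 26.9% over 63 members and 32.1% over 583 others. Among the least variable members were Rpl4 (18.7%), Rpl24 (19.9%), Rps3 (20.4%) and Rps15 (20.4%). The most variable were Rpsa (44.8%), Rpl18 (41.1%), Rps4x (40.2%), Rpl27a (40.2%) and Rpl5 (39.8%). Rpsa, a small subunit protein also known as the laminin receptor, ranged from 30.6 RPKM in cell 12 to 271 RPKM in cell 43 with a median of 132 RPKM. Rpl27a ranged from 101 to 455 RPKM with a median of 196 RPKM.

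The members varied together over cells. The mean Spearman rho over the 2278 pairs of the 68 genes was 0.46, with 0.49 within the small subunit, 0.44 within the large subunit and 0.47 between them, so genes of 1 subunit were about as alike as genes of different subunits. All 804 genes at 10 RPKM in all cells had a mean of 0.13, the 97 of the 100 abundant genes that reached it 0.38, 22 respiratory chain genes 0.43 and 7 mitochondrial ribosomal protein genes 0.08. Relative to the 100 abundant genes the mean among the members was 0.15. These values share library and depth, and their part in the agreement was not tested.

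Each of the 68 genes had a positive rho with the sum of the other members, from 0.31 (Rpl7) to 0.88 (Rplp1), and 58 were over 0.5. Rplp1, Rpl37 (0.86), Rps21 (0.86) and Rps29 (0.86) followed the sum most closely. Within the stalk, Rplp1 was at 0.88, Rplp2 at 0.58 and Rplp0 at 0.38. Rpl5 was at 0.33 and its partner Rpl11 at 0.73. Rps15a (0.13), Rpl22 (0.15) and Rps4l (0.21) followed it least among those with a positive value.

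**Figure D5:**
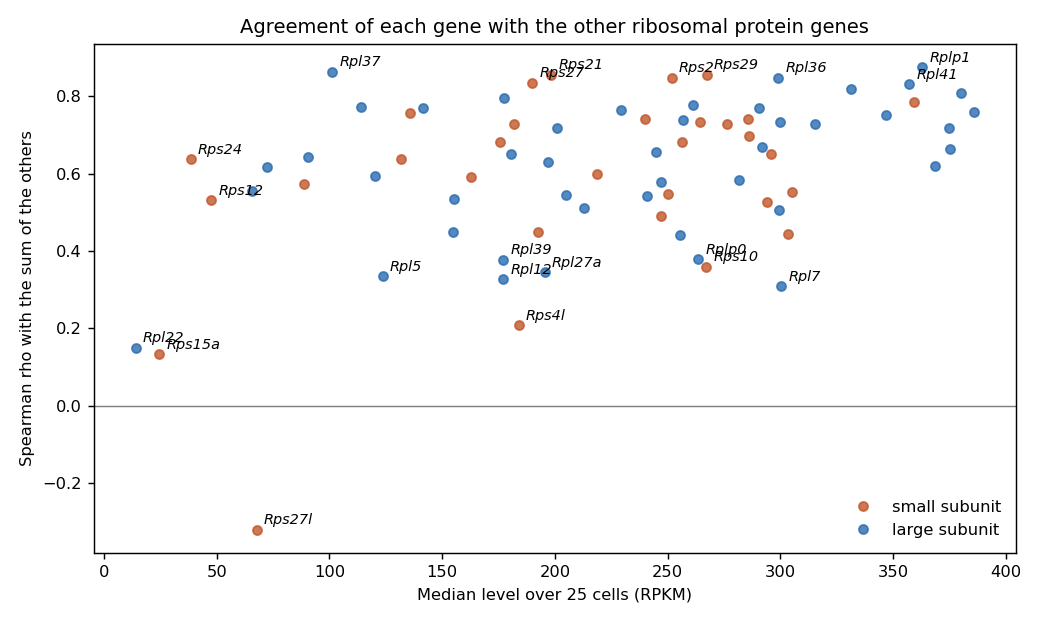
Spearman rho of each gene with the summed level of the other members over 25 cells (vertical axis) against its median RPKM (horizontal axis), for the genes above 0 (1 gene not drawn), blue for large and orange for small subunit genes. Rps27l lies at -0.32, and Rplp1 is highest at 0.88.

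Several ribosomal protein genes carry other names and fall outside the rule, as does Rpl7l1, a gene named as Rpl7-like. Fau, which encodes S30 fused to a ubiquitin-like protein, had a median of 260 RPKM (153 to 560 RPKM). Rps3a1 had a median of 317 RPKM (67.1 to 480 RPKM). Gnb2l1, the scaffold protein RACK1 of the small subunit, had 89.9 RPKM (25.1 to 171 RPKM). Rpl7l1 had 24.2 RPKM and reached 10 RPKM in 14 cells. Over the 25 cells, the rho with the summed level of the members was 0.83 for Fau, 0.54 for Rps3a1, 0.55 for Gnb2l1 and 0.17 for Rpl7l1. Of the 50-base words of Fau, 83.5% occur in other genes, so its level is uncertain.

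Of 2090 other genes at 10 RPKM in at least 20 cells, the elongation factor Eef1a1, itself a TOP message, had the highest rho with the summed level, 0.93, at 327 to 694 RPKM. It was followed by Actg1 (0.87), Hspa8 (0.87), Aldoa (0.85), Cox5b (0.85), Gm1821 (0.85), Cox8a (0.84), Bex2 (0.84), Ndufa3 (0.83) and Fau (0.83). The lowest were Enpp5 (-0.62), Scd2 (-0.61), Wrb (-0.60), Fam171b (-0.59) and Aplp2 (-0.56), and the median over the 2090 genes was 0.07. The 10 highest all had medians of 242 RPKM or more and the 5 lowest had medians of 99.7 RPKM or less.

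The fixed list of translation factors with TOP messages had 16 of 17 genes at 10 RPKM in most cells (13.5% over all symbols), 10 of them in all, and its sum had a rho of 0.78 with the members. Its members differed, with Eef1a1 at 0.93, Tpt1 at 0.45 and Eef2, the translocation factor, at 0.04. Eef1a2, the neuronal form of the factor, had a median of 19.9 RPKM beside 483 RPKM for Eef1a1 and a rho of 0.32. Of 20 genes for ribosome assembly and rRNA transcription, 10 reached 10 RPKM in most cells and 2 in all, with Fbl at 61.1 RPKM, and their sum had a rho of -0.18. Of 16 mTORC1 pathway and TOP control genes, 4 reached 10 RPKM in most cells, among them Rheb (121 RPKM) and Eif4e (119 RPKM), with a rho of 0.40. The 22 respiratory chain genes, all at 10 RPKM in every cell, had a rho of 0.87. The 74 mitochondrial ribosomal protein genes had a median of 53.0 RPKM over gene medians, with 7 at 10 RPKM in all cells, and a rho of 0.46.

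Immediate early and heat shock genes are known to respond to tissue dissociation. The sum of 16 immediate early genes ranged from 85.3 to 2926 RPKM over cells with a rho of 0.35, and that of 11 heat shock genes from 1259 to 2621 RPKM with a rho of 0.59. Summed markers of other cell classes had a rho of 0.14 and Malat1 0.16. Their part in the summed level was not tested.

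The 5′ ends of the genes were read from RefSeq (GRCm38.p6), since the TOP motif is the sequence feature this family is known for. For 59 members a window of 250 bases before to 50 after an annotated start was given. A C within 5 bases of the start that opens a run of at least 6 pyrimidines, whatever base precedes it, was found in 25 of the 59 (42.4%). The share was 11.9% of all 27025 symbols, 11.7% of protein-coding ones and 6.06% of 66 mitochondrial ribosomal protein genes. At a length of at least 8 it was 33.9% against 5.17% of all symbols. Counted only where no pyrimidine precedes the C, a stricter reading added after the data were seen, it was 14 of the 59 (23.7%) against 8.09%. The windows below give 15 bases before and 15 from the start, 5′ to 3′ on the gene's strand, with the run from that C in capitals, so pyrimidines before it stay in lower case. The first 3 are genes of high median, of which none had such a run. The next 3 had the longest runs as counted from that C, and that of Rpl27a goes on past the printed end. Rps24, Rps15a and Rpl22 had the lowest medians, and Rps27 with Rps27l is a copy pair of which the parent alone had a run.
Rpl13 (chr8:123102335-123102364, plus): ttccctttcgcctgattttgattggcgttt
Rpl10 (chrX:74270801-74270830, plus): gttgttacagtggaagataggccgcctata
Rpl4 (chr9:64173372-64173401, plus): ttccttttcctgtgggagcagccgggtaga
Rpl27a (chr7:109519180-109519209, plus): gacttcgtgagCTCCTCCCTTTTCCCTTTC
Rpl15 (chr14:18270972-18271001, minus): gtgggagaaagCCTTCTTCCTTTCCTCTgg
Rpl35 (chr2:39005117-39005146, minus): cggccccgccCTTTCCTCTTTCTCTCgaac
Rps24 (chr14:24490663-24490692, plus): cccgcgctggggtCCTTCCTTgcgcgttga
Rps15a (chr7:118116133-118116162, minus): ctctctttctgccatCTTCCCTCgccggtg
Rpl22 (chr4:152325711-152325740, plus): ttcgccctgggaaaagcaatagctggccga
Rps27 (chr3:90213634-90213663, minus): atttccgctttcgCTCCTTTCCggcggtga
Rps27l (chr9:66946071-66946100, plus): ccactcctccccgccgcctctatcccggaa

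An annotated start can lie some bases from the start the cell uses, so an absent run says only that these letters are not within 5 bases of it. Rps24 and Rps15a, with runs, were among the lowest levels, and Rpl13 and Rpl4, without, among the highest. Over all, the median level was 201 RPKM for the 25 genes with a run and 201 RPKM for the 34 without. Those 34 include Rpl10l, Rpl39l and Rpl3l, at 0 in every cell, which lower the median of that set. The equal medians therefore do not show equal levels among the genes above 0. Searched on both strands of the 300 bases, with motifs chosen after the data were seen, the letters CCGGAAG occurred in 40.7% of the 59 genes, 9.93% of all symbols and 12.9% of protein-coding ones. In the same order, GGGCGG occurred in 61.0%, 38.2% and 49.2%, ATGGCGGC in 6.78%, 2.60% and 3.50%, and TATAAA in 10.2%, 15.7% and 14.8%. No motif holds another whole, though neighbouring matches can share end letters. A match describes a sequence, not a bound site.

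By position, 14 of the genes lay on chromosome 7, 7 each on chromosomes 9 and 17 and 4 on X. The rows with -ps in their names given here had medians of 0 to 5.5 RPKM. This does not hold for all annotated pseudogenes, since Rps4l and Gm15772 had medians of 184 and 263 RPKM. Rps15a-ps4 reached 86.2 RPKM in cell 25 and 10 RPKM in no other cell, and Rpl14-ps1, Rpl31-ps12, Rps15a-ps6 and Rps19-ps3 had highest values of 15.3, 37.6, 3.83 and 1.31 RPKM. Shared sequence was common among the members, and its share of 50-base words had a rho of 0.13 with the median level over the 77 genes.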

How the data were processed

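Smart-Seq2 and Nextera XT libraries of polyadenylated RNA were made from 25 single cells, per the labels' protocols. The authors deposited 1 table of decimal values that behave as RPKM although it is named for counts. The submitters' processing notes list, without roles, featureCounts 1.4.6, TopHat2 2.0.14, SAMtools 0.1.19, Picard 2.5.0 and bcl2fastq, with mm10 and GRCm38 as builds. Annotation, gene lengths and treatment of duplicates were not given in the sources used here.

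Of 33082 rows, 26 whose names had become date numbers were left out. Each cell's depth, 893306 to 2954042 reads, was estimated from the steps of 1 to 3 reads among 5380 single-transcript genes (GENCODE M21), over a search range set after seeing the data. Of the low values, 58.0% to 76.3% per cell lay within 0.1 of a whole read, so depths are estimates of unknown error. Levels were summed, ranked and correlated with pandas 2.3.3, with no test. Shared sequence was counted in 50-base words of GENCODE transcripts. The members and lists were chosen with earlier results of these data known. Genes named were the 10 highest and 10 lowest medians, those at 0, the 5 most and least variable, copies with parents, the stalk, 5S, X-linked and outside lists, and the 10 most and 5 least alike other genes; not every gene this picks is reported here. Alternatives were other levels, scalings, pseudocounts and cells left out. The stated design named protein identity between copies, which was not computed.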

Additional observations from a re-analysis of the deposited data

How the results depend on the processing

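Of 44 alternatives, 32 left their result within a margin of the reported value and 12 moved it. A reversal was looked for only among the correlations, and none changed sign. The margin was an error from leaving out 1 cell at a time, the SD over cells or, for counts, a fold limit. It was wide for weak correlations. The rho with immediate early genes went from 0.35 to 0.19 without the cells of low Malat1 and still counted as within it. Rescaling each cell to a column sum of 1000000 gave a median summed level of 43996. Leaving out the highest and the lowest cell, 43 and 11, reduced the range of summed levels to 1.72-fold, and dividing by the 100 abundant genes to 1.37-fold. That division, chosen after seeing the data, also lowered the mean pairwise rho to 0.15 and moved the rho with depth to -0.24. The small to large ratio was 0.794 without the 5 genes of highest median and 0.989 from medians over genes. Counting genes at 1 RPKM gave a rho of -0.38 with the summed level. Rescaling moved the rho with the respiratory chain to 0.78, with mitochondrial ribosomal genes to 0.01 and with ribosome assembly genes to -0.40. The cause of these shifts was not tested. The number of members present in all cells, 68, was 71 at a level of 1 RPKM, 70 at 5 RPKM and 67 at 20 RPKM, and 69 at 10 RPKM without cell 9. Lower levels, cell 9 left out and summed rows of a repeated symbol can only raise this number. With only 80 members it could not then pass its fold limit, so those outcomes were fixed in advance. Counting pyrimidine runs only where no pyrimidine precedes the C, an alternative added after seeing the data, left 14 members with a run in place of 25. No paired analysis was possible because all cells form 1 group. Estimated depth limits what a value of 0 shows, and p-values cannot be had from 1 pooled sample.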
